A study of Mus musculus with 4 samples.

Results

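The genes described here are 9 genes of major histocompatibility complex (MHC) class I antigen presentation in mouse spleen. They were chosen by name: the heavy chain genes H2-K1, H2-D1 and H2-T23, the light chain gene B2m, the peptide loading genes Tap1, Tap2, Tapbp and Erap1, and the transactivator gene Nlrc5. All 9 were found among the 23763 genes of the deposited table, each under 1 Ensembl identifier, and all 9 passed the minimum level for testing. RNA had been taken from spleen of C57BL/6J mice at baseline, depleted of ribosomal RNA and sequenced with a directional kit. The 4 libraries form 2 groups, wild-type (WT) and KLHL3-KI, a knock-in line of the ubiquitin ligase adaptor gene Klhl3, with 2 libraries in each. The labels used here name neither the altered residue of KLHL3 nor the sex or age of the animals, and do not say whether each library is a separate animal.

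MHC class I molecules stand on nearly all nucleated cells and show short peptides from the cell's own proteins to CD8 T cells and to natural killer (NK) cells. Proteasomes cut proteins into peptides, the TAP transporter carries these into the endoplasmic reticulum, the aminopeptidase ERAP1 trims them, and tapasin holds empty class I molecules at TAP until a peptide has bound. NLRC5 drives transcription of class I heavy chains, of B2m and of parts of the loading machinery, as CIITA does for MHC class II. Lymphocytes, which make up most cells of a resting spleen, carry much class I, whereas maturing red cell precursors lose it.

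Values are scaled read counts, that is reads divided by 1 factor per library, and are not corrected for gene length. The libraries held between 8535483 and 10933023 reads in genes. Klhl3 itself was at 3.02 and 4.67 in WT replicates 1 and 2 and at 2.53 and 1.36 in KLHL3-KI replicates 1 and 2, from 14 to 45 reads, and did not pass the test (limma adjusted p = 0.0895). A knock-in need not change the level of its gene, so these values do not check the labels. Of 16970 genes tested between the groups with limma, 2583 rose and 1283 fell in KLHL3-KI at a Benjamini-Hochberg adjusted p under 0.05, which is 15.2% and 7.56% of the genes tested (22.8% in either direction). Defining markers of spleen cells were present in all libraries, and cell type markers differed strongly between the groups. The summed level of 14 red cell precursor markers was 26780 to 30590 in WT and 54511 to 55087 in KLHL3-KI libraries, and that of 10 neutrophil markers was 72.4 to 159 and 1473 to 1988. The sum of 10 B cell markers was 3833 to 3956 in WT and 2191 to 2867 in KLHL3-KI, and that of 10 T cell markers was 481 to 544 and 275 to 314. In whole tissue, fewer cells of a type and less RNA per cell cannot be told apart.

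Part of the class I presentation genes fell in KLHL3-KI spleen. Nlrc5, Tap1, Tap2, H2-K1 and H2-T23 fell, while H2-D1, B2m, Tapbp and Erap1 did not pass the test and no member rose. Thus 5 of 9 members fell, where 7.56% of all tested genes fell, 15.2% rose and 22.8% passed in either direction. All 9 fitted values were under 0, as were those of 51.3% of tested genes. The median log2 fold change of the 9 members was -0.29, against -0.01 over all tested genes, and 20.4% of tested genes were at or below the members' median. Both KLHL3-KI values lay under both WT values for 8 of the 9 members, the exception being B2m. This order holds for 31.9% of tested genes, the opposite order for 32.8% and either for 64.7%. The fitted changes ran from -0.57 for Nlrc5 to -0.01 for B2m.

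**Figure D1:**
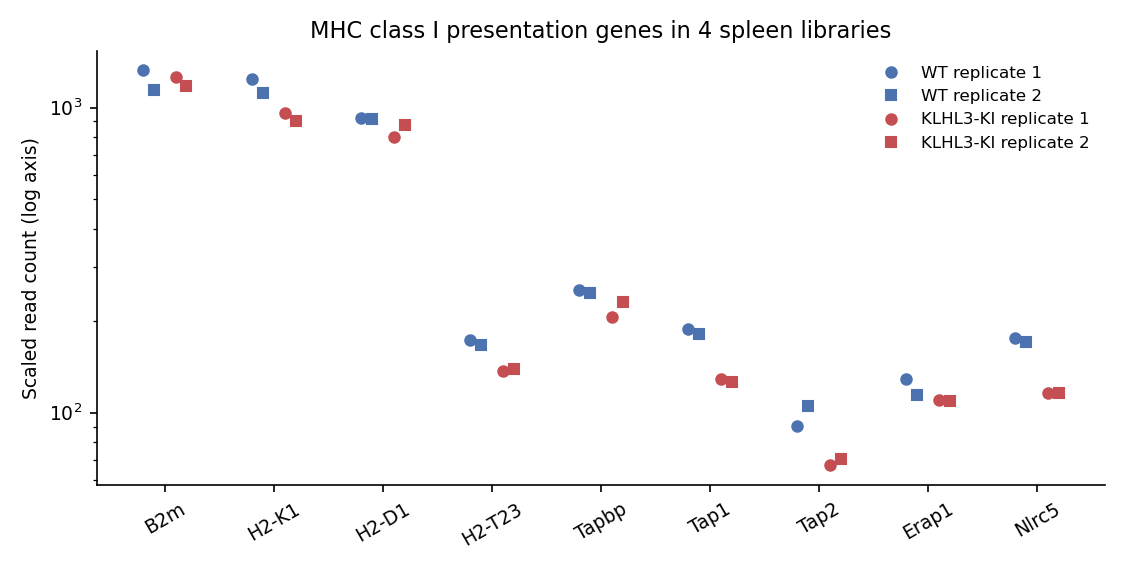
Scaled read count (log axis) of the 9 class I presentation genes in each of the 4 libraries, WT in blue and KLHL3-KI in red, with a circle for replicate 1 and a square for replicate 2. Nlrc5 lies between 170.2 and 176 in WT and between 115.6 and 116 in KLHL3-KI, whereas the B2m values of both groups overlap.

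**Figure D2:**
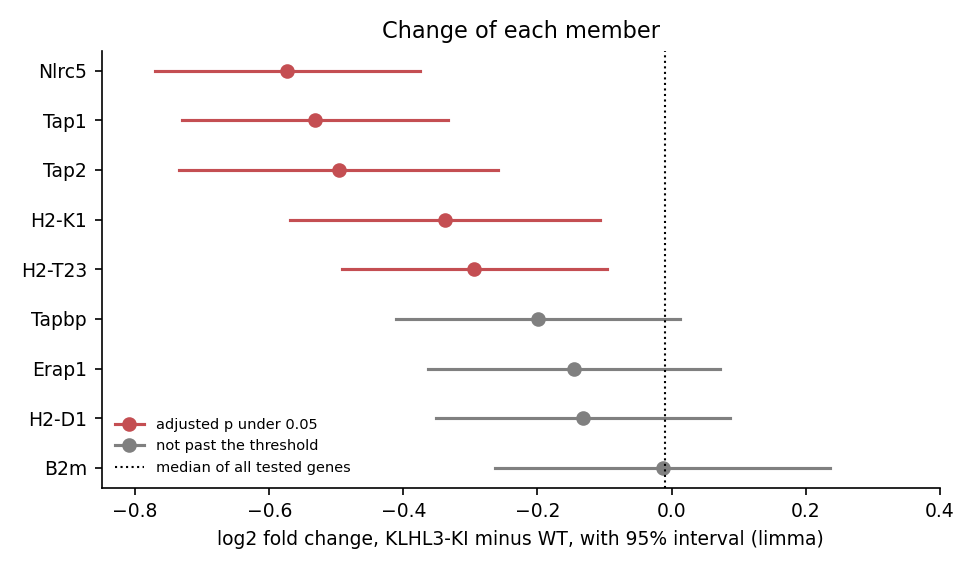
Log2 fold change (KLHL3-KI minus WT) of each member with its 95% interval from limma, in red where the adjusted p was under 0.05 and in grey where it was not; the dotted line is the median of all tested genes at -0.01. The intervals of Nlrc5, Tap1, Tap2, H2-K1 and H2-T23 lie wholly under 0, and those of the other 4 members include it.

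The heavy chains bind the peptide, and each needs the light chain β2-microglobulin, encoded by B2m, to reach the surface. H2-K1 and H2-D1 encode the classical molecules H-2K and H-2D, and H2-T23 encodes Qa-1, which shows signal peptides of other class I molecules to the CD94/NKG2A receptor of NK cells. The RefSeq promoter table (build GRCm38.p6) held an entry for 7 of the 9 members. Sequences of 250 bases before the transcription start are shown for H2-K1 and Tap1, which fell, and for H2-D1 and B2m, which did not pass the test. They are written 5′ to 3′ on the gene's strand, and capitals mark matches on either strand to the interferon-stimulated response element (ISRE) or its core AANNGAAA, which overlaps it, the kappaB consensus, the X2 box core TGACG and the CCAAT box. The sites are H2-K1 at chr17:34000348-34000597 on the minus strand, H2-D1 at chr17:35262844-35263093 on the plus strand, B2m at chr2:122147437-122147686 on the plus strand and Tap1 at chr17:34187306-34187555 on the plus strand.
H2-K1: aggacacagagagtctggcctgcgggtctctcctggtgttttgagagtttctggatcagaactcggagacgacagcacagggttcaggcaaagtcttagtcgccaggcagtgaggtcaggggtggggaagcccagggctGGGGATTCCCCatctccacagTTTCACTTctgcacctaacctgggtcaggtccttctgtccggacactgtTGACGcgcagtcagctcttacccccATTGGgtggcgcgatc
H2-D1: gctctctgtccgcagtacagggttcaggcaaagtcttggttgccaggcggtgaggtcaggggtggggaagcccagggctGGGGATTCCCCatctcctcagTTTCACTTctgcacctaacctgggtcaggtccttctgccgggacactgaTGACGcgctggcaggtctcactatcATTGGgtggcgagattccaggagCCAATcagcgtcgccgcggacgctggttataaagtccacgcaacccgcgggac
B2m: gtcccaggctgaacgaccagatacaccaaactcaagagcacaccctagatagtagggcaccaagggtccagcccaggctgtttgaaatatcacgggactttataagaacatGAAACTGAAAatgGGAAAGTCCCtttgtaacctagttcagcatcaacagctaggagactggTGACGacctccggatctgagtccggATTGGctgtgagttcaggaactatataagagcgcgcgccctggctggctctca
Tap1: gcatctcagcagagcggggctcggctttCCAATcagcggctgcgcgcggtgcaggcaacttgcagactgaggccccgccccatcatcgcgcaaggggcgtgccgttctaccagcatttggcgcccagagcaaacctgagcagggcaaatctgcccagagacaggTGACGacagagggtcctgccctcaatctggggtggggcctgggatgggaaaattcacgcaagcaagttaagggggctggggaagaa
H2-K1 and H2-D1 hold the same 4 kinds of match in the same order. The kappaB match comes first, then the ISRE core, the X2 core and a CCAAT box on the opposite strand. They lie at 111, 90, 41 and 16 bases before the start in H2-K1 and at 171, 150, 101 and 76 bases in H2-D1, counted to the first base of each match. H2-D1 holds a further CCAAT box at 53 bases. At the same distance from the shared matches the H2-K1 window has already ended, so such a box could not be seen there. B2m holds a full ISRE, GAAACTGAAA, at 139, a kappaB match at 126, an X2 core at 78 and a CCAAT box at 53 bases. The Tap1 window holds an X2 core at 86 and a CCAAT box at 222 bases, and no ISRE core or kappaB match. Of 27025 promoters in the table with windows of that length, 3.04% hold the full ISRE, 21.6% its core, 7.01% the kappaB consensus, 17.9% the X2 core and 34.5% a CCAAT box. H2-T23, which fell and whose sequence is not shown, holds a full ISRE with its core at 124 bases. A further ISRE core lies at 81 and a CCAAT box at 52 bases there. Of the members not called, Tapbp holds only CCAAT boxes, at 248 and 165 bases, and Erap1 holds none of these matches. Whether these matches bear on the changes was not tested.

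H2-K1 (ENSMUSG00000061232) was at 1244 and 1117 in the WT libraries and at 959.6 and 906 in the KLHL3-KI libraries. All KLHL3-KI values were under all WT values, and the KLHL3-KI mean was 79.0% of the WT mean. The log2 fold change was -0.34 (SE 0.10), just past the threshold (limma adjusted p = 0.0423). H2-T23 (ENSMUSG00000067212) was at 173 and 166 in WT and at 137 and 139 in KLHL3-KI, again without overlap. It fell by 0.29 on the log2 scale (SE 0.09, limma adjusted p = 0.0392). H2-D1 (ENSMUSG00000073411) was at 924 and 917 in WT and at 803 and 878 in KLHL3-KI. The groups did not overlap, but the difference was small, at 91.3% of WT, and did not pass (log2 fold change -0.13, 95% interval -0.35 to 0.09, limma adjusted p = 0.365). It passed in 3 of 18 alternative analyses, all of them other scalings (adjusted p 0.0128 to 0.770 over the 18), and its log2 fold change was -0.07 without KLHL3-KI replicate 1. B2m (ENSMUSG00000060802) was at 1322 and 1142 in WT and at 1262 and 1174 in KLHL3-KI. Here both KLHL3-KI values fell within the WT range, at 98.9% of WT on average (log2 fold change -0.01, 95% interval -0.26 to 0.24, limma adjusted p = 0.948).
The looser threshold of 0.1, where no call could be lost, is among the 18 alternative analyses here and in later counts. The calls of H2-K1 and H2-T23 were held in 11 and 10 of 18 alternative analyses. Both were lost without any 1 of the 4 libraries, with median-ratio rescaling, with no filter and without a variance trend, and H2-T23 also with DESeq2 (adjusted p up to 0.206 and 0.177, down to 0.00166 and 0.00302). B2m turned to a positive value without WT replicate 1 (0.09) and without KLHL3-KI replicate 2 (0.04).

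Heavy chain genes resemble each other, so the reads of a single one are uncertain where the counting could split them. Among stretches of 50 bases of the longest coding transcript (GENCODE M21), 8.79% in H2-K1, 14.3% in H2-D1 and 28.8% in H2-T23 also occur in transcripts of other genes. The share was 0.861% or less for Tap1 and Tap2, 2.00% for Tapbp and 0 for B2m, Nlrc5 and Erap1. The 15 heavy chain genes of the MHC region found in the table were therefore also summed, which does not depend on how reads were split within these 15. The sum was 3316 and 3165 in WT, against 2652 and 2642 in KLHL3-KI libraries, a log2 ratio of -0.29 (81.7% of WT). All KLHL3-KI sums were lower than all WT sums (exact two-sided permutation p = 0.33, the smallest that 2 against 2 libraries can give).

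The TAP transporter is a pair of half-transporters encoded by Tap1 and Tap2. Tap1 (ENSMUSG00000037321) was at 189 and 182 in WT and at 129 and 126 in KLHL3-KI. The spread within each group was far smaller than the gap between them, and the KLHL3-KI mean was 69.0% of WT (log2 fold change -0.53, SE 0.09, limma adjusted p = 0.00233). Tap2 (ENSMUSG00000024339) was at 90.6 and 105 in WT and at 67.3 and 70.7 in KLHL3-KI, or 70.4% of WT (log2 fold change -0.50, SE 0.11, limma adjusted p = 0.00868). Both subunits thus stood at a similar fraction of WT, and the ratio of Tap1 to Tap2 overlapped between the groups, at 2.08 and 1.72 in WT, against 1.92 and 1.79 in KLHL3-KI.
Tapbp (ENSMUSG00000024308), which encodes tapasin, was at 253 and 247 in WT and at 205 and 230.1 in KLHL3-KI. Its groups did not overlap but KLHL3-KI replicate 2 lay closer to WT, and the gene did not pass (log2 fold change -0.20, 95% interval -0.41 to 0.01, limma adjusted p = 0.164). Erap1 (ENSMUSG00000021583), which encodes the trimming aminopeptidase, was at 129 and 114 in WT and at 109.8 and 109.5 in KLHL3-KI. The gap to WT replicate 2 was small beside the spread within WT (log2 fold change -0.15, 95% interval -0.36 to 0.07, limma adjusted p = 0.315). Within each library, Tap1 relative to Tapbp was 0.747 and 0.736 in WT, against 0.629 and 0.549 in KLHL3-KI. The ratio did not overlap between the groups (exact two-sided permutation p = 0.33, the smallest possible).
Tap1 passed in 18 of 18 alternatives, with adjusted p from 5.63e-05 to 0.0385. Tap2 was not called when WT replicate 2 was left out or no variance trend was fitted (adjusted p = 0.106 and 0.0633, range 0.00102 to 0.106), while Tapbp passed in 3 of the 18 and Erap1 in 2, all of them other scalings.

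Nlrc5 (ENSMUSG00000074151), the class I transactivator, had the lowest fold change of the members. It was at 176 and 170.2 in WT and at 116 and 115.6 in KLHL3-KI. The values of each group were close together, and the KLHL3-KI mean was 67.0% of the WT mean. The log2 fold change was -0.57 (SE 0.09, limma adjusted p = 0.00148), and 5.46% of all tested genes had one as low or lower. Nlrc5 passed in 18 of 18 alternatives, with log2 fold changes from -0.74 to -0.55 and adjusted p from 1.50e-05 to 0.0310.

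**Figure D3:**
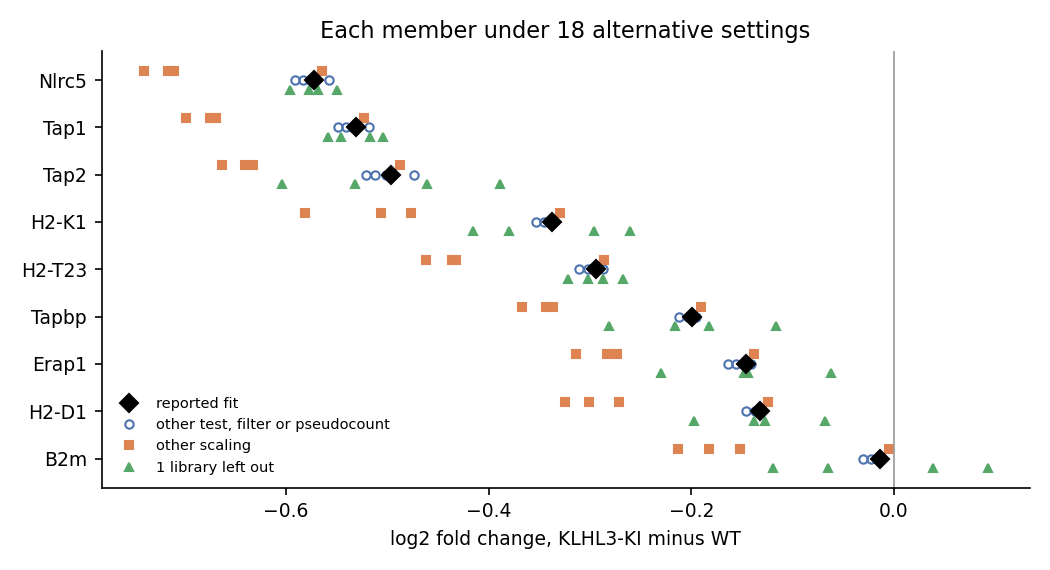
Log2 fold change (KLHL3-KI minus WT) of each member as reported (black diamond) and under 18 alternatives: other scalings of the libraries (orange squares), 1 library left out (green triangles), and another test, variance model, threshold, filter, pseudocount or a replicate block (open circles). Of the 4 scalings, 3 moved all members to lower values, from -0.01 to as low as -0.21 for B2m and from -0.57 to as low as -0.74 for Nlrc5. Another variance model, threshold or filter and the replicate block leave the fold change as reported by construction.

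The number of members that passed changed with the scaling of the libraries. The median of all tested genes was -0.10 when quantiles were made equal, -0.14 when totals were made equal without haemoglobin, immunoglobulin and mitochondrial genes, and -0.16 when all totals were made equal. Under these scalings 7, 8 and 8 members fell, where all genes that fell numbered 2371, 2963 and 3126 (13.97%, 17.7% and 18.4% of tested genes). The rises and falls over all genes were then 2051 and 2371, 2090 and 2963, and 1912 and 3126. Under each of these scalings all 9 members lay below the median of all genes. Without WT replicate 1, WT replicate 2, KLHL3-KI replicate 1 or KLHL3-KI replicate 2, the members that fell numbered 3, 2, 3 and 3, where 2.78%, 1.57%, 9.59% and 4.63% of tested genes fell.

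Per kilobase of exon (the union of exons in GENCODE M21), which makes levels comparable between genes, B2m stood highest in WT at 1433 ± 149 scaled reads (SD, n = 2). It was followed by H2-K1 at 713 ± 54.2, H2-D1 at 438 ± 2.46, H2-T23 at 115 ± 3.05, Tapbp at 86.1 ± 1.41 and Tap1 at 62.7 ± 1.67. Tap2 at 28.5 ± 3.03, Erap1 at 21.5 ± 1.79 and Nlrc5 at 21.3 ± 0.482 were lowest, and only the last neighbours, Erap1 and Nlrc5, overlapped between the WT libraries. In KLHL3-KI spleen H2-K1 was at 563 ± 23.1 and H2-D1 at 399.8 ± 25.5 on this scale, so the distance between their means was smaller there. The ratio of H2-K1 to H2-D1, from values not corrected for length, was 1.35 and 1.22 in WT, against 1.20 and 1.03 in KLHL3-KI. The gap between the groups was smaller than the spread within each (exact two-sided permutation p = 0.33, the smallest possible).

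Ratios between genes of the same library do not depend on a scaling by 1 factor per library. H2-K1 relative to B2m was 0.940 and 0.978 in WT, against 0.760 and 0.771 in KLHL3-KI, and H2-T23 relative to B2m was 0.131 and 0.146 in WT, against 0.109 and 0.118 in KLHL3-KI. For Tap1 this ratio went from 0.143 and 0.159 to 0.102 and 0.108, and for Nlrc5 from 0.133 and 0.149 to 0.0922 and 0.0984. None of these 4 ratios overlapped between the groups (exact two-sided permutation p = 0.33 each, the smallest possible). The ratio of H2-D1 to B2m did overlap, at 0.699 and 0.803 in WT, against 0.636 and 0.748 in KLHL3-KI (exact permutation p = 0.667). In the same libraries, then, the light chain kept a higher level relative to H2-K1, H2-T23, Tap1 and Nlrc5 in KLHL3-KI than in WT.

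**Figure D4:**
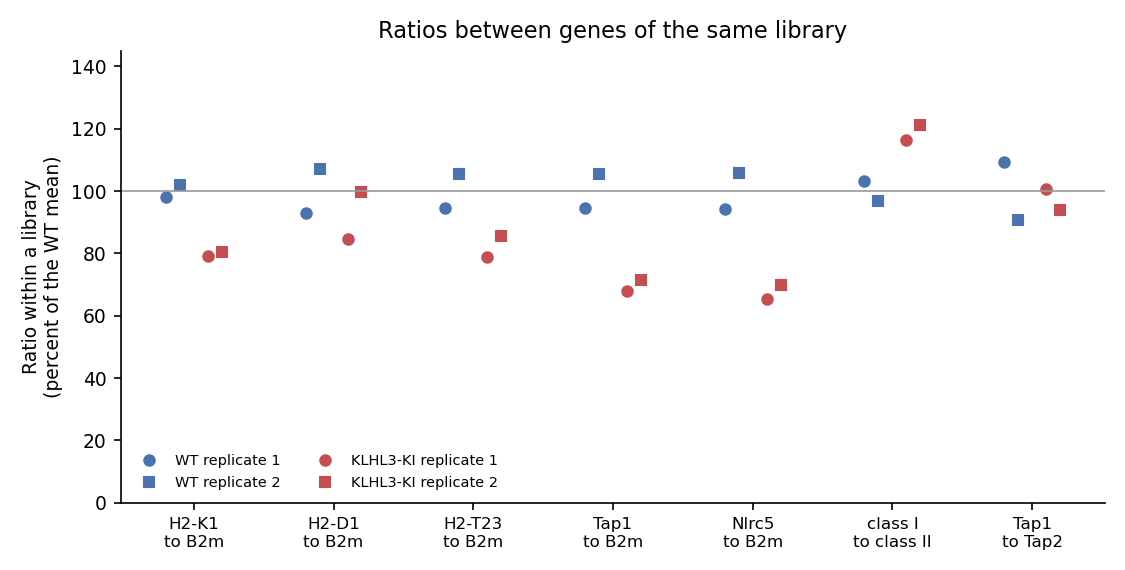
Ratio between genes of the same library as a percentage of the WT mean of that ratio, with WT in blue, KLHL3-KI in red, circles for replicate 1 and squares for replicate 2. The ratios of H2-K1, H2-T23, Tap1 and Nlrc5 to B2m are lower in both KLHL3-KI libraries, the class I to class II ratio is higher in both, and those of H2-D1 to B2m and Tap1 to Tap2 overlap.

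Further heavy chain genes of the MHC region fell as well. Of 35 listed, 15 were found in the deposited table and 13 were tested, H2-Q2 and H2-M5 being under the minimum level. Of these 13, 8 fell and 1 rose, with a median log2 fold change of -0.42. Of the 8, 6 are not among the 9 genes above. H2-Q7 and H2-Q6, which encode the Qa-2 molecules, fell by 0.49 (SE 0.09) and by 0.50 (SE 0.09), and H2-Q4 fell by 0.46 (SE 0.09). H2-Q7 went from 345 ± 7.44 to 246 ± 5.77 (SD, n = 2). H2-Q5, H2-M2 and H2-M3, named after their values were seen, fell by 0.52, 0.86 and 0.42, and H2-M3 is known for presenting formylated bacterial peptides. H2-T24 rose from 47.3 ± 2.36 to 67.9 ± 0.388 (log2 fold change 0.51, SE 0.10, limma adjusted p = 0.00556). Of the stretches of 50 bases in H2-Q7 and H2-Q6, 34.9% and 32.0% occur in other genes, against 3.23% in H2-T24. Without WT replicate 1, WT replicate 2 or KLHL3-KI replicate 2, and without a variance trend, 1, 2, 4 and 2 heavy chain genes fell, and H2-T24 was not called without WT replicate 2. Among class I-like chains encoded outside the MHC, such as the lipid-presenting Cd1d1 and the neonatal Fc receptor Fcgrt, 0 of 7 tested passed with limma and 0 had an unadjusted p under 0.05. edgeR and DESeq2 also called 0, 2 fell under each of 3 other scalings, and their median was -0.22.

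Among the proteasome genes that supply peptides, some fell and others rose. Beside the counts of this and every other list, 7.56% of all tested genes fell and 15.2% rose in the reported fit. Psmb8 and Psmb9 encode interferon-inducible catalytic subunits of the immunoproteasome, and Psmb9 lies beside Tap1 in the MHC. Psmb8 fell from 147 ± 9.99 to 106 ± 2.24 (log2 fold change -0.47, SE 0.09), and Psmb9 from 77.3 ± 3.18 to 56.6 ± 2.87 (log2 fold change -0.44, SE 0.10). Psme3, the nuclear proteasome activator, rose from 125 ± 0.628 to 194 ± 27.4 (log2 fold change 0.63, SE 0.11). In all, 2 of 8 immunoproteasome and activator genes fell and 1 rose, with a median of -0.18. Of the constitutive catalytic subunits, which the immunoproteasome subunits replace, Psmb7 rose by 0.61 (SE 0.11) and Psmb5 by 0.43 (SE 0.11), and Psmb6 did not pass; without WT replicate 2 none of these 3 passed, and without WT replicate 1 or KLHL3-KI replicate 2 only Psmb7 did. Neither Psmb8 nor Psmb9 was called without WT replicate 1, where 0 immunoproteasome genes fell, and without WT replicate 2 the count was 1. Of 8 cytosolic peptidases, Thop1, which destroys peptides in the cytosol, rose by 1.09 (SE 0.17), and 0 fell.
Within the endoplasmic reticulum, 3 of 15 peptide loading and quality control genes fell and 2 rose (median 0.11). Those that fell were Tap1, Tap2 and the tapasin-related gene Tapbpl, which went from 39.5 ± 1.03 to 28.5 ± 3.79. The chaperone calnexin (Canx) rose from 414 ± 44.2 to 595 ± 13.5 and the translocon subunit Sec61g from 9.03 ± 1.47 to 15.4 ± 0.858. Without WT replicate 2, 1 of these genes fell and 0 rose. Of 10 tested genes of class I surface turnover, Derl1 and Wwp2 rose (by 0.31 and 0.32, each called in 9 of 18 alternatives, in none that left out a library) and 0 fell. With equal quantiles or equal totals 3 or 4 of these genes fell and 0 rose, 5 or 6 of the loading genes fell and 4 of the immunoproteasome genes fell.

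Of 24 regulators of class I transcription tested, 5 fell and 6 rose, with a median of -0.05. This balance depended on the scaling: 9 fell and 3 rose with equal quantiles, and 8 fell and 3 rose with equal totals, with or without haemoglobin, immunoglobulin and mitochondrial genes. Besides Nlrc5, Rfx5, a DNA-binding partner of NLRC5 and CIITA, fell from 63.6 ± 0.0964 to 41.8 ± 2.24 (log2 fold change -0.59, SE 0.10). Stat2, a signal transducer of type I interferon, fell by 0.48 (SE 0.10), as did the NF-κB genes Nfkb1 and Rel. Ezh2, the Polycomb methyltransferase, rose, from 39.8 and 37.2 in the WT libraries to 82.7 and 97.6 in the KLHL3-KI libraries, as did the CREB family gene Atf1, from 31.8 and 28.2 to 50.6 and 55.3. The CCAAT-binding subunits Nfya, Nfyb and Nfyc and the Polycomb gene Suz12 also rose; these, Stat2, Nfkb1 and Rel were named after their values were seen. Without WT replicate 1, WT replicate 2, KLHL3-KI replicate 1 and KLHL3-KI replicate 2, 2, 4, 6 and 3 of the regulators fell and 3, 2, 3 and 3 rose.
Of 41 interferon-stimulated genes tested, 6 fell and 4 rose, with a median of -0.06. Tap1, Psmb8, Psmb9, Stat2, Gbp4 and Ddx58 fell, whereas the antiviral genes Rsad2, Isg15 and Oas3 rose by 1.31, 1.61 and 1.37, and Ifih1 also rose. Rsad2 was at 137 and 98.4 in WT and at 257 and 327 in KLHL3-KI. When WT replicate 1 was left out, 1 of these genes fell and 6 rose, whereas 10, 12 and 12 fell and 3 rose in each case with equal quantiles, equal totals and equal totals without haemoglobin, immunoglobulin and mitochondrial genes.

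Genes listed as class I receptors of T, NK and myeloid cells were mixed. Of 19 tested, 3 fell and 2 rose, with a median of -0.26. The CD8 coreceptor genes Cd8a and Cd8b1 fell by 0.66 (SE 0.13) and by 0.54 (SE 0.16), and Klrk1, which encodes NKG2D, fell by 0.39 (SE 0.12). The myeloid receptor genes Lilrb4a and Lilr4b rose, from 45.7 ± 2.58 to 86.1 ± 15.2 and from 15.8 ± 3.27 to 46.2 ± 17.3. The Klra and Klrc genes of NK cells that were tested did not pass, many of them at a low level. Without WT replicate 1, WT replicate 2 or KLHL3-KI replicate 2, 0, 1 and 1 receptor genes fell.

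**Figure D5:**
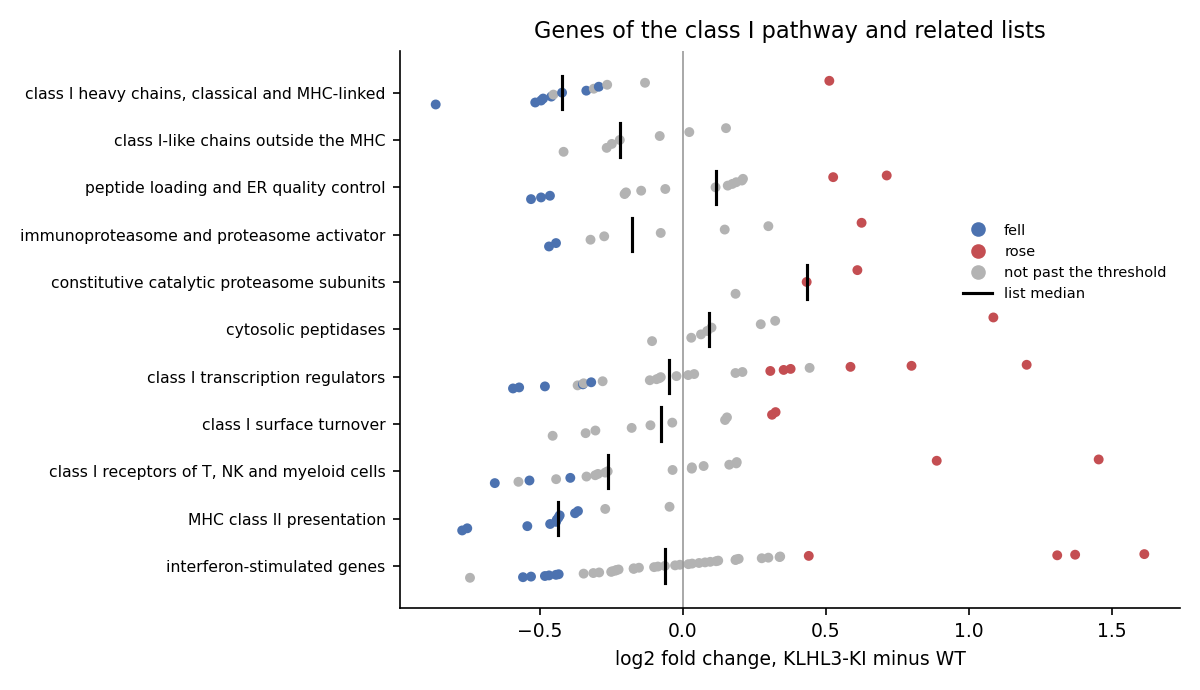
Log2 fold change (KLHL3-KI minus WT) of every tested gene in 11 lists, blue where it fell, red where it rose and grey where it did not pass; black bars are list medians. The medians of MHC class II genes (-0.44) and class I heavy chains (-0.42) are lowest, and that of interferon-stimulated genes is -0.06.

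MHC class II genes, which present peptides from outside the cell to CD4 T cells, were also lower in KLHL3-KI spleen. Of 12, 10 fell, with a median of -0.44, and the transactivator Ciita fell by 0.77 (SE 0.12). The ratio of H2-K1, H2-D1 and B2m summed to H2-Aa, H2-Ab1, H2-Eb1 and Cd74 summed was 0.534 and 0.501 in WT, against 0.602 and 0.628 in KLHL3-KI. It did not overlap between the groups (119% of WT, exact two-sided permutation p = 0.33, the smallest possible). Without WT replicate 1, WT replicate 2 or KLHL3-KI replicate 2, 3, 3 and 5 class II genes fell.
Marker lists of spleen cell types moved in both directions. Of 10 B cell markers 9 fell (median -0.71), and 10 of 10 T cell markers fell (median -0.78). Of 8 NK cell markers 2 fell (median -0.33), and of 8 dendritic cell markers 3 fell (median -0.20). Leaving out WT replicate 1, 6 B cell, 6 T cell, 0 NK cell and 0 dendritic cell markers fell. Leaving out WT replicate 2 these counts were 3, 9, 0 and 2, and leaving out KLHL3-KI replicate 2 they were 8, 9, 1 and 0. All 14 red cell precursor, all 10 neutrophil and all 8 megakaryocyte and platelet markers rose, with medians of 2.48, 3.76 and 1.16. Of 8 red pulp macrophage markers 2 rose (median 0.22), and of 8 endothelial and stromal markers 1 fell (median -0.22). Leaving out WT replicate 1, 1 macrophage marker rose and 0 endothelial and stromal markers fell; leaving out WT replicate 2, 0 macrophage markers rose, and leaving out KLHL3-KI replicate 1, 3 endothelial and stromal markers fell. No marker in these lists was at 0 in all libraries. Relative to the summed B cell markers, Nlrc5 was at 0.0459 and 0.0430 in WT and at 0.0406 and 0.0528 in KLHL3-KI, and Tap1 at 0.0492 and 0.0459 and at 0.0450 and 0.0577. These ratios and that of Tap2 overlapped between the groups. Those of H2-K1, H2-T23, Tapbp, Erap1 and H2-D1 were higher in both KLHL3-KI libraries, at 123%, 128%, 138%, 141% and 144% of WT. Relative to the summed T cell markers, Nlrc5 was at 0.323 and 0.354 in WT and at 0.370 and 0.420 in KLHL3-KI, and Tap1 at 0.346 and 0.377 and at 0.410 and 0.459, higher in both KLHL3-KI libraries. B2m relative to the summed B cell markers was 0.345 and 0.289 in WT, against 0.440 and 0.536 in KLHL3-KI, without overlap. Relative to the summed T cell markers it was 2.43 and 2.37 in WT, against 4.01 and 4.27 in KLHL3-KI. The part of these cell types in the falls of the members was not tested.

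Among 4399 genes with a mean of at least 50, Btk, Soat1 and Lrrfip1 had the values over the 4 libraries most like the mean of the 9 members. Likeness was the root mean square difference of centred log2 values, which was 0.00847, 0.0119 and 0.0124. Btk, for example, was at 90.8 and 86.3 in WT and at 71.9 and 72.3 in KLHL3-KI. Among the members themselves H2-T23 was closest to their mean, at 0.00442, and B2m farthest, at 0.160.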

How the data were processed

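Spleen RNA of 4 libraries (2 WT, 2 KLHL3-KI) was compared. Groups and replicate numbers come from the sample titles, and columns were matched by the library names in the descriptions. Per the submitters' processing notes, Trimmomatic 0.38, Bowtie2, RSEM 1.3.0 and edgeR were used with build GRCm39; the notes give no roles, annotation or filters. The deposited values are a normalized signal, named normalized counts in the file header. In each library 100% of them are whole multiples, within 0.001 of a read, of what 1 read is worth, so whole reads could be recovered by removing 1 factor per library. The factor depends on the authors' scaling, which was varied. Depth was 8535483 to 10933023 reads per library, and members rested on 611 to 12058 reads, so the number of libraries limits precision more than depth does.

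Names came from GENCODE M21 (GRCm38) and matched 23605 of 23763 identifiers; coordinates are given only for RefSeq promoters, whose build differs from the authors'. Genes with a mean of at least 1 (16970) were compared on log2(value + 1), which understates changes of low genes. The test was limma 3.58.1 in R 4.3.3 (variance trend, two-sided, Benjamini-Hochberg over all tested genes). The fit was also run on simulated counts with the same variance setting for every gene, which cannot check the calls in these data. p-values measure the spread between these libraries, which may be technical. Recovered reads were also tested with edgeR 4.0.16 (quasi-likelihood; 3888 genes passed) and DESeq2 1.42.0. Other alternatives were pseudocounts of 0.1 and 5, no filter or a mean of at least 5, 4 scalings, 2 variance models, a threshold of 0.1, a replicate block and each library left out. Members, lists, tests and promoter motifs were chosen with earlier results of these data known. Named by rule were all members, up to 4 genes of lowest p in each of 20 lists and the 4 genes most like the members, of which 1 is not reported here; others are marked, or are named only in list counts or as members of a list.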

Additional observations from a re-analysis of the deposited data

How the results depend on the processing

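Nlrc5 and Tap1 kept direction and call in 18 of 18 alternatives, and no member other than B2m changed sign. Another filter, variance model or threshold and the replicate block leave the fold change of a member as reported, so no sign could change there. At the looser threshold of 0.1 the fit is the reported one, so no call could be lost either. B2m, not called in any alternative, was at 0.0925 without WT replicate 1 and at 0.04 without KLHL3-KI replicate 2, and ranged from -0.12 to 0.0925 without 1 library. The members called, 5 as reported, were 3 with no filter, 3 with median-ratio rescaling, 8 with equal total reads, 8 with totals made equal after removing haemoglobin, immunoglobulin and mitochondrial genes, 2 with no variance trend and 2 to 3 without 1 library. Of all genes, 2462 were called with no variance trend and 1653 to 4530 without 1 library; 1386 to 2903 rose without 1 library. Genes that fell, 1283 as reported, were 2371 after quantile normalization, 3126 with equal total reads, 2963 with those genes removed, 659 with no variance trend, 793 with DESeq2, 1991 at an adjusted p under 0.1 and 267 to 1627 without 1 library. The lowest counts came without WT replicate 2. The log2 ratio of summed heavy chains was -0.49 after quantile normalization, -0.46 with equal total reads, -0.43 with those genes removed and -0.32 to -0.26 without 1 library. The log2 class I to class II ratio, 0.25, ranged from 0.20 to 0.30. Apart from fewer samples or another scaling, the causes were not tested. With the replicate block 4130 genes and 5 members were called. The labels do not say that equal numbers share a source, and the numbers, taken from the titles, differ from those in some library names. The deviations of same-numbered libraries from their group means correlated at -0.0325 across genes. With 2 libraries a group this is a single correlation, so it cannot tell whether same-numbered libraries share a source. Tap2, at 611 to 1015 reads, had the fewest reads of the members.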

Other observations

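Genes around the class I and class II loci were read in RefSeq order (assembly GRCm38.p6) from H2-K1 to H2-D1 on chromosome 17, a region chosen after the results were seen. Of 72 tested genes there, 17 fell and 8 rose, with a median log2 fold change of -0.14. Of the 17, 13 are among the 15 tested class I, class II, Tap and Psmb genes that the region was chosen for. The remaining ones of these, H2-Eb2 and H2-D1, did not pass. Of the other 57 tested genes 4 fell (7.02%) and 8 rose, beside 7.56% and 15.2% of all tested genes. Next to each other in this order stand Psmb9, Tap1, Psmb8 and Tap2, which all fell, by 0.44, 0.53, 0.47 and 0.50, and the class II genes H2-Ob, H2-Ab1, H2-Aa and H2-Eb1 follow, which fell by 0.75, 0.43, 0.44 and 0.44. The 4 that fell were H2-Ke6, Gpsm3, the lymphotoxin gene Ltb, by 0.72 (SE 0.14), and Tnf, by 0.79 (SE 0.18). Among the 8 that rose were the heat shock gene Hspa1b at 1.07 (SE 0.33), the platelet receptor gene Mpig6b at 1.23 (SE 0.18), Ly6g6f at 1.42 (SE 0.24) and Abhd16a at 0.73 (SE 0.11). Neighbouring genes are not independent of each other, and no test of position was made.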
